A study of Homo sapiens and Mus musculus with 10 samples.

Results

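The matrix metalloproteinases (MMPs), the secreted ADAMTS proteases (a disintegrin and metalloproteinase with thrombospondin motifs) and the tissue inhibitors of metalloproteinases (TIMPs) are the enzymes, and the inhibitors of those enzymes, that remodel the extracellular matrix. Members were taken by symbol from the protein-coding genes of GENCODE release 44: MMP or ADAMTS followed by a number, and the TIMP genes. This gave 46 of 19970 genes on the autosomes and X, namely 23 MMP, 19 ADAMTS and 4 TIMP genes. Their chromatin accessibility was compared between 4 human cell lines of different origin: GM12878, B lymphocytes immortalised with Epstein-Barr virus; K562, erythroid-like cells from a chronic myeloid leukaemia; HEK293T, transformed embryonic kidney cells that also express SV40 large T antigen; and HFF1, fibroblasts from foreskin. The assay was bulk ATAC-seq, in which the Tn5 transposase inserts adapters into open chromatin, with 2 replicates per line and 1 deposited peak list per library. No treatment or edited allele is named for any line. Nothing in the labels says that the replicates came from separate cultures, so p-values measure only the spread between these libraries, which may be technical.

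MMPs are made as inactive precursors, which other proteases activate. Together they cut collagens, elastin, laminins and proteoglycan cores, whereas ADAMTS proteases cut proteoglycans, trim procollagens, act on fibrillin-rich microfibrils or, as ADAMTS13 does, cut von Willebrand factor. TIMPs bind the active site of these enzymes and block it. Fibroblasts are a main source of many of them, and several MMP promoters are textbook targets of AP-1, the Fos-Jun dimer that binds TGACTCA.

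The promoter sequences shown here are those of members whose promoter peak differed between lines, and they come from the MMP cluster at 11q22 (MMP7, MMP10 and MMP27) and from other chromosomes (MMP14, TIMP3 and ADAMTS18). Each is the 250 bases before the start site, from RefSeq on GRCh38.p14, written 5′ to 3′ on the strand of the gene. Capitals mark TGACTCA or its reverse complement TGAGTCA, and TATAAA on either strand. The RefSeq promoter table held 27 of the 46 members.

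MMP7 promoter (chr11:102530748-102530997, minus strand): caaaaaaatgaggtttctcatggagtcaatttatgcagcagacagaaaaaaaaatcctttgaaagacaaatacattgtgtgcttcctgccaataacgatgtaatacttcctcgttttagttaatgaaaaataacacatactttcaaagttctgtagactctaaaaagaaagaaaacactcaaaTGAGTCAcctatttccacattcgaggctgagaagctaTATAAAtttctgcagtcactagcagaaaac
MMP10 promoter (chr11:102780629-102780878, minus strand): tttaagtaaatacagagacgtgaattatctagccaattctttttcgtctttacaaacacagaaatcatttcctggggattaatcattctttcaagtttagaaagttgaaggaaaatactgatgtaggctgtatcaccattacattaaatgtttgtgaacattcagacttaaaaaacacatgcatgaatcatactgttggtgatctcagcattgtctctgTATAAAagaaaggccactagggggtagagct
MMP27 promoter (chr11:102705770-102706019, minus strand): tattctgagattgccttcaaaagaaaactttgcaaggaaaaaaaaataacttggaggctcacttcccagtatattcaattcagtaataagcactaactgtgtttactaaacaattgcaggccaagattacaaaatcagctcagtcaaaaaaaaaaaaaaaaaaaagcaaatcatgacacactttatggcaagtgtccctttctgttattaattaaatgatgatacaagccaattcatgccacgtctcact
MMP14 promoter (chr14:22836335-22836584, plus strand): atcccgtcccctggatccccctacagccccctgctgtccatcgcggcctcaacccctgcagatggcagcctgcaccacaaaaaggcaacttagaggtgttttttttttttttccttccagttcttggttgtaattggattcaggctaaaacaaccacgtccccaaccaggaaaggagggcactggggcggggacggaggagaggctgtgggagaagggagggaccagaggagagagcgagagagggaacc
TIMP3 promoter (chr22:32801455-32801704, plus strand): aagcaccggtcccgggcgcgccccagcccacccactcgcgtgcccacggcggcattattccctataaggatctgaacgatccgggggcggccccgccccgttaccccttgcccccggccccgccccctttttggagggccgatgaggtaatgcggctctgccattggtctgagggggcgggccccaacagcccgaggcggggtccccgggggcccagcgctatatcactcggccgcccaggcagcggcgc
ADAMTS18 promoter (chr16:77435035-77435284, minus strand): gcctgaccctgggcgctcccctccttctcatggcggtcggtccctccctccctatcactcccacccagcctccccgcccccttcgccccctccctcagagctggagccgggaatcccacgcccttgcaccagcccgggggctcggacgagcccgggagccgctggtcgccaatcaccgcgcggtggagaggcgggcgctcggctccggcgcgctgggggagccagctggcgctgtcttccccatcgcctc

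MMP7 had a peak here in GM12878 and HFF1 alone, and its TGAGTCA began at position -67 and its TATAAA at -30 from the start site. MMP10 had TATAAA at -31 and a peak in GM12878, HEK293T and HFF1. MMP14 had one in HFF1 alone, TIMP3 in every line but GM12878, and ADAMTS18 in HEK293T alone at this start site. MMP27 had a peak within 1 kb of its start in HFF1 alone, but the peak of HFF1 replicate 2 lay upstream of the printed bases.

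The intronic sequences shown next come from regions called in both replicates of 1 line and in no library of another. For each line it is the member region of the highest deposited fold, and the ADAMTS2 region is added as an HFF1 example with an AP-1 match. Each is 101 bases centred on the summit, on the plus strand of hg38, with the same capitals.

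ADAMTS6 intron, GM12878 (chr5:65172650-65172750, plus strand): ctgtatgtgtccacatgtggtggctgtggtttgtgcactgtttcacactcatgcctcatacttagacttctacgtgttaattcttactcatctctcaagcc
ADAMTS18 intron, HEK293T (chr16:77409541-77409641, plus strand): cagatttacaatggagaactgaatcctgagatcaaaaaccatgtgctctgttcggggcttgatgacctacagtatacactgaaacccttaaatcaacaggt
ADAMTS12 intron, HFF1 (chr5:33649946-33650046, plus strand): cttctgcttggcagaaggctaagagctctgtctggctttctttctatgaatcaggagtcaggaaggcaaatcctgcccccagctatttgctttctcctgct
ADAMTS2 intron, HFF1 (chr5:179243575-179243675, plus strand): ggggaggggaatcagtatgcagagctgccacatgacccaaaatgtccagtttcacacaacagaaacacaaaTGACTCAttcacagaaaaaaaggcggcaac
ADAMTS3 intron, K562 (chr4:72473733-72473833, plus strand): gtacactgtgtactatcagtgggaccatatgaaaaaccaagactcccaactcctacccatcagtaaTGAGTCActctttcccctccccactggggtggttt

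The ADAMTS6 region had folds of 17.4 and 15.3 in the GM12878 replicates. The ADAMTS18 region reached 13.1 and 13.4 in HEK293T, the ADAMTS12 region 17.0 and 12.3 in HFF1, the ADAMTS2 region 11.7 and 14.1 in HFF1, and the ADAMTS3 region 13.5 and 14.2 in K562. Each of these regions had no peak in the 6 libraries of the other lines. The fold is the authors' own linear ratio, the pileup at a summit divided by the background around it, so it ranks peaks within a list and is not compared between libraries.

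The lists held 101704 and 103715 peaks in GM12878, 52438 and 52137 in HEK293T, 127359 and 120344 in HFF1, and 78601 and 71241 in K562. The lists give no read totals. The background level recovered from them, which is proportional to depth, was 0.465 and 0.466 in HEK293T against 1.71 to 2.43 in the other lines, so that a missing peak in HEK293T rests on the lowest depth. The origin of the lines was checked by markers with a promoter peak in both replicates: 7 of 7 B-cell genes in GM12878, 8 of 8 fibroblast genes in HFF1, 5 of 5 renal-development genes in HEK293T and 5 of 7 erythroid genes in K562, where KLF1 and HBG1 had none in any library. The lists were not limited to their own line: B-cell genes had a promoter peak for 3 of 7 in HEK293T and 4 in each of HFF1 and K562, fibroblast genes for 4 of 8 in GM12878, 2 in HEK293T and 4 in K562, renal genes for 2 of 5 in GM12878, 3 in HFF1 and 1 in K562, and erythroid genes for 1 of 7 in each other line. Markers of other cell types also had peaks: 3 of 3 macrophage genes did in GM12878 and in HFF1, 1 in K562 and 0 in HEK293T. Of 4 epithelial genes 4 did in GM12878 and in HFF1 and 3 in HEK293T and in K562, and of 2 endothelial genes PECAM1 did in GM12878 and K562. Their part in the results was not tested. In bulk libraries, fewer cells with an open site and less opening per cell cannot be told apart.

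A promoter peak is a deposited peak that overlaps the 1 kb either side of any annotated start site of a gene. It was counted for a line where both replicates had one. HFF1 had the most members with a promoter peak, 38 of 46 or 82.6%, against 76.2% of all 19970 genes. The other lines lay below their background: HEK293T had 24 members (52.2%, against 67.8% of all genes), GM12878 19 (41.3% against 71.9%) and K562 19 (41.3% against 70.4%). The 11 members with a peak in all 4 lines (23.9%, against 59.7% of all genes) were ADAMTS3, ADAMTS6, ADAMTS7, ADAMTS10, MMP1, MMP11, MMP15, MMP17, MMP28, TIMP1 and TIMP2. The 5 with none in any library (10.9% against 14.7%) were MMP8, MMP12, MMP13, MMP20 and MMP21. Starts of MORF4L1 and CHCHD10 lie within 2 kb of those of ADAMTS7 and MMP11, so a peak there cannot be assigned to 1 gene. With the canonical start alone, MMP11 lost HEK293T. The percentages are shares of genes, with no test. With each list cut to its top 50000 peaks, HFF1 had 23 members and HEK293T 24, so HFF1 was then no longer the highest.

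For 26 members (56.5%, against 19.4% of all genes) the promoter call differed between lines, with both replicates of 1 or more lines called and neither replicate of another. These were 10 of the 23 MMPs, 14 of the 19 ADAMTS genes and 2 of the 4 TIMPs. In HFF1 and no library of another line stood MMP3, MMP14, MMP27 and ADAMTS16, which is 4 members or 8.70%, against 2.05% of all genes. ADAMTS1, ADAMTS5, ADAMTS8, ADAMTS15 and ADAMTS18 had a peak in both HEK293T and both HFF1 libraries and in no GM12878 or K562 library, 5 members or 10.9% against 1.23%. For ADAMTS18 the peaks of these lines lay at different start sites, and at the canonical start its HFF1 call was lost. ADAMTS9, ADAMTS17 and TIMP3 had one in HEK293T, HFF1 and K562 and in no GM12878 library, 3 members or 6.52% against 1.33%. ADAMTS13 was the 1 member in GM12878 alone (2.17% against 1.40%). No member was in HEK293T alone (background 0.336%), in K562 alone (1.12%), or in both blood lines and no library of HEK293T or HFF1 (0.596%).

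Depth bears on these counts. With the pileups of every library scaled to the HEK293T depth, the members with a promoter peak numbered 12 in GM12878, 24 in HEK293T, 32 in HFF1 and 12 in K562. MMP3, MMP14 and TIMP4 then had a peak in HFF1 alone, whereas MMP27 and ADAMTS16 had none in any library. ADAMTS8 was left with HEK293T and TIMP3 and ADAMTS9 with HEK293T and HFF1. The start site used bears on them too: with the canonical start alone, 7 members were in HFF1 alone, with ADAMTS4, MMP1 and ADAMTS10 added, while ADAMTS18 lost HFF1, ADAMTS9 lost K562, and ADAMTS3 and ADAMTS19 lost GM12878. Folds given for a gene are those of its best peak at any start site.

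**Figure D1:**
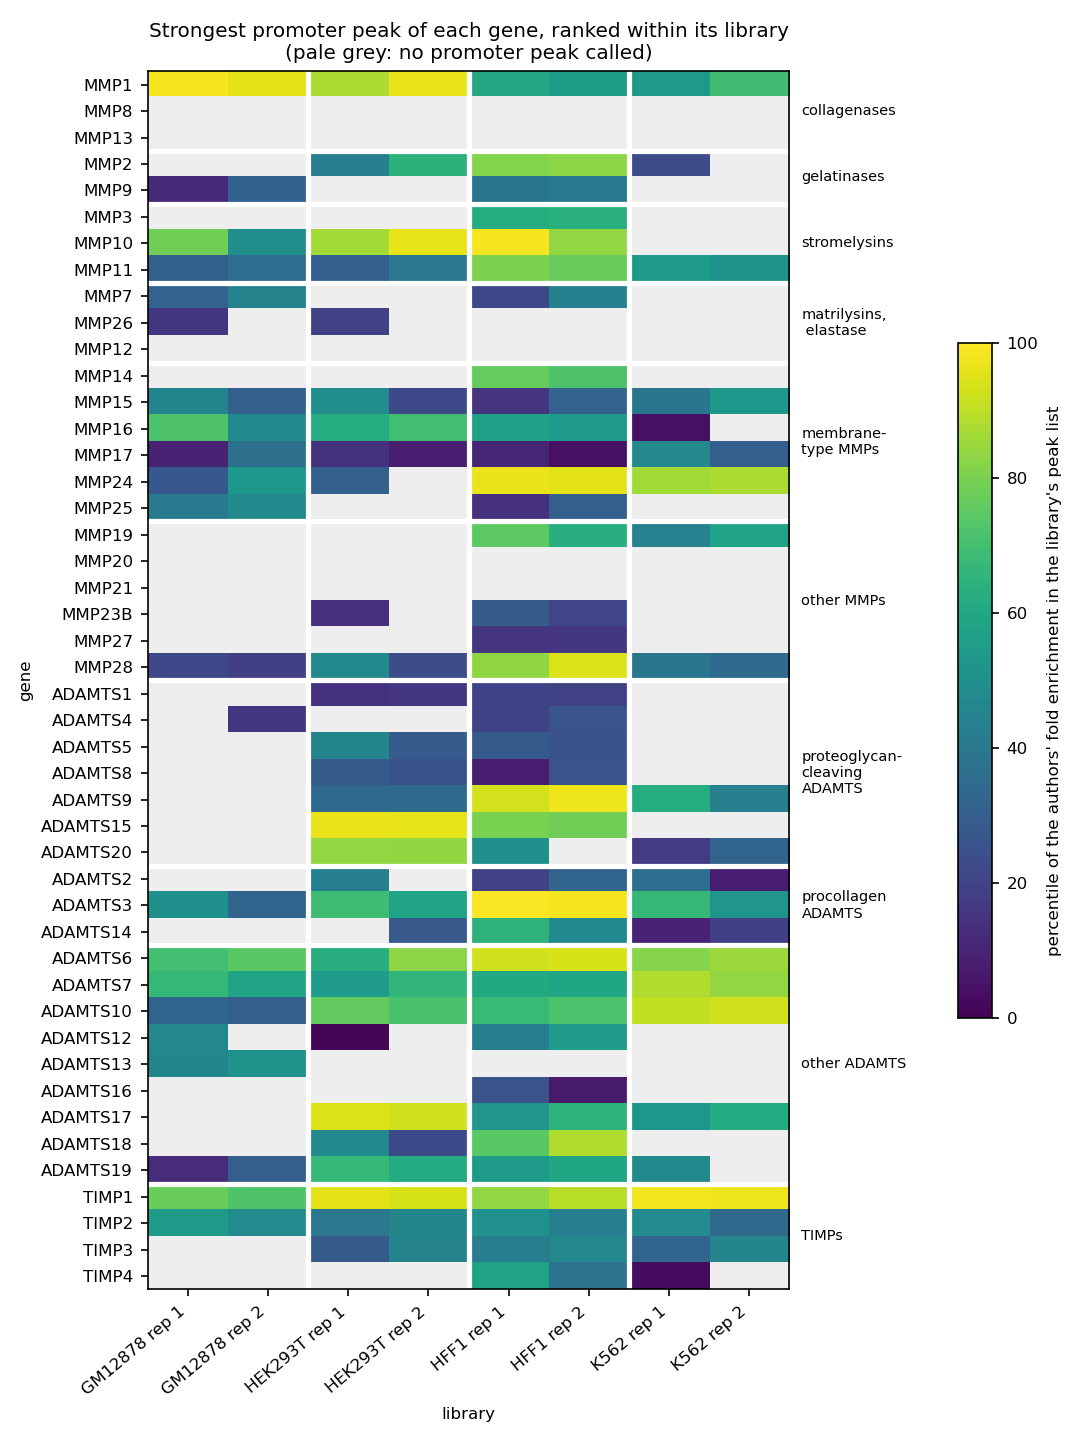
Promoter peaks of the 46 members (rows, grouped by role) in the 8 human libraries (columns); colour gives the percentile of the authors' fold of the best promoter peak within the list of its own library, and pale grey marks no peak. The HFF1 columns are filled for 38 members in both replicates, and 5 MMPs are pale grey in all 8 libraries.

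Among the collagenases, which make the first cut in fibrillar collagen, MMP1 had a promoter peak in every library and MMP8 and MMP13 in none. The MMP1 folds were 18.3 and 15.9 in GM12878, 13.1 and 15.9 in HEK293T, 7.34 and 7.13 in HFF1, and 6.55 and 8.09 in K562. Those peaks lay at an internal start site 3697 bp downstream of the canonical one (gene at chr11:102789401-102798160), whose transcript has no defined coding sequence. At the canonical MMP1 start there was a peak in HFF1 alone, with folds of 5.41 and 5.56 and summits at -61 and -96 bp. MMP13 (chr11:102942995-102955732) had 2 gene-body peaks in each HFF1 replicate and none in the 6 other libraries.

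The stromelysins MMP3 and MMP10 cut proteoglycans and laminin and activate other MMPs. MMP3 (chr11:102835801-102843609) had a promoter fold of 7.57 and 7.84 in HFF1 and no promoter peak in any other library. With the top 50000 peaks of each list, MMP3 had no promoter peak in any library, HFF1 included. MMP10 (chr11:102770502-102780628) had 11.1 and 7.32 in GM12878, 12.8 and 15.6 in HEK293T, 15.1 and 10.5 in HFF1, and no peak in either K562 replicate. These MMP10 peaks ranked between percentiles 49.8 and 98.5 of their lists, and K562 was the line that lacked one.

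The gelatinases MMP2 and MMP9 cut denatured collagen and basement membrane collagen, and their promoters were open in different lines. MMP2 (chr16:55389700-55506691) had folds of 7.57 and 9.55 in HEK293T, 9.91 and 10.3 in HFF1, and 4.68 in K562 replicate 1, with no peak in the remaining K562 library or in GM12878. MMP9 had 4.35 and 5.69 in GM12878 and 5.64 and 5.90 in HFF1, and none in HEK293T or K562. The best HFF1 peaks of MMP2 lay near an internal start, at 8082 and 8078 bp, and at the canonical start HFF1 had 6.03 and 6.93. The MMP9 call in GM12878 was lost at the HEK293T depth and within 500 bp, which left HFF1.

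Of the matrilysins and the macrophage elastase MMP12, MMP7 (chr11:102520508-102530750), a small epithelial enzyme, had folds of 5.77 and 6.76 in GM12878 and 4.66 and 6.21 in HFF1 and no peak in the other 4 libraries. MMP26 had a promoter peak only in replicate 1 of GM12878 and of HEK293T and met the call in no line. MMP12 had no promoter peak, but 3 and 2 gene-body peaks in HFF1 and none elsewhere.

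The membrane-type MMPs are held at the cell surface. MMP14 (chr14:22836560-22849041), which activates MMP2 and cuts collagen around cells, had a promoter fold of 9.15 and 8.80 in HFF1 and no promoter peak in the 6 other libraries. MMP25, known from neutrophils, had 6.57 and 7.05 in GM12878 and 4.17 and 5.24 in HFF1, and none in HEK293T or K562. MMP24 had 5.53 and 7.68 in GM12878, 6.83 in HEK293T replicate 1, 14.1 and 13.5 in HFF1, and 9.98 and 10.4 in K562. MMP16 had peaks in 7 of the 8 libraries, all but K562 replicate 2. MMP15 and MMP17 had one in all 8.

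Among the remaining MMPs, MMP19 had folds of 9.0 and 7.79 in HFF1 and 5.85 and 7.02 in K562 and no peak in GM12878 or HEK293T. MMP27 (chr11:102691487-102705769) had 4.23 and 4.43 in HFF1, at percentiles 15.0 and 15.8 of the lists. The MMP27 peaks of the 2 replicates did not overlap each other, with summits at -127 and -418 bp, so no single site was called in both. MMP23B had 5.04 and 4.74 in HFF1 and 5.67 in HEK293T replicate 1, and it has a near-identical pseudogene, MMP23A, with which reads could be shared.

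The proteoglycan-cleaving ADAMTS proteases include the aggrecanases ADAMTS4 and ADAMTS5, which break down cartilage aggrecan, and the versican-cutting ADAMTS1, ADAMTS9, ADAMTS15 and ADAMTS20. Of these 7 genes, 6 had a promoter peak in HEK293T, 6 in HFF1, 2 in K562 and 0 in GM12878. ADAMTS15 (chr11:130448645-130476645) had folds of 16.3 and 15.7 in HEK293T, at percentiles 97.2 and 96.4 of the lists, and 9.68 and 9.56 in HFF1. ADAMTS5 (chr21:26917922-26967088) had 7.85 and 6.70 in HEK293T and 4.98 and 4.96 in HFF1. ADAMTS1, its neighbour on chromosome 21 (chr21:26835755-26845409), had 5.74 and 5.81 in HEK293T and 4.54 and 4.61 in HFF1. None of these 3 had a peak in GM12878 or K562, so HEK293T and HFF1 stood apart from the blood lines at each.

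ADAMTS8 followed the same pattern, with 6.74 and 6.42 in HEK293T and 3.76 and 5.00 in HFF1. Within 500 bp of its start sites, ADAMTS8 had no peak in any library. ADAMTS9 had 6.92 and 6.95 in HEK293T, 12.4 and 14.5 in HFF1, and 7.15 and 6.04 in K562, all away from the canonical start. At the canonical start ADAMTS9 had 5.28 and 5.00 in HEK293T, 4.11 and 4.42 in HFF1, and none in K562. ADAMTS20 had 12.4 and 12.2 in HEK293T, 6.45 in HFF1 replicate 1, and 4.36 and 5.39 in K562.

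All 3 procollagen N-proteinases, which remove the amino-terminal propeptide of fibrillar procollagens or process growth factors, had a promoter peak in HFF1 and in K562. ADAMTS2 had 7.60 in HEK293T replicate 1, 4.52 and 5.40 in HFF1, and 5.32 and 3.88 in K562. ADAMTS14 had 6.63 in HEK293T replicate 2, 7.82 and 6.43 in HFF1, and 3.87 and 4.61 in K562. Neither had a peak in GM12878, where ADAMTS3 did.

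The other ADAMTS genes were mixed. ADAMTS18 (chr16:77247813-77435034) was called in HEK293T and HFF1 at different start sites. At its canonical start HEK293T had folds of 8.04 and 5.92, with summits at -63 and -26 bp, and HFF1 had no peak. The HFF1 peaks, of 8.92 and 11.2, lay at an internal start, 146663 and 146648 bp from the canonical one. ADAMTS17, linked to fibrillin microfibrils, had 15.1 and 14.3 in HEK293T, 6.70 and 7.90 in HFF1, and 6.42 and 7.35 in K562. GM12878 had no promoter peak at either gene. ADAMTS13, which cuts von Willebrand factor, had 6.98 and 7.36 in GM12878 and none elsewhere, and the start of REXO4 lies within 2 kb. ADAMTS16 had 4.85 and 3.86 in HFF1 only. ADAMTS12, which cuts cartilage oligomeric matrix protein, had 7.01 in GM12878 replicate 1, 4.26 in HEK293T replicate 1, and 5.90 and 7.05 in HFF1. ADAMTS19 had peaks in 7 of 8 libraries, with K562 replicate 2 missing.

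Of the inhibitors, TIMP1 and TIMP2 had a promoter peak in every library and TIMP3 and TIMP4 did not. TIMP1 (chrX:47582408-47586789) had folds of 10.9 and 10.1 in GM12878, 15.5 and 14.7 in HEK293T, 10.3 and 11.5 in HFF1, and 13.5 and 13.4 in K562, all at or above percentile 72.4 of their lists. TIMP2, which also helps MMP14 to activate MMP2, had a peak in all 8 libraries, with folds between 5.45 and 7.83. TIMP3 (chr22:32801705-32863041), the inhibitor that binds to the matrix and blocks ADAMTS proteases as well, had 6.68 and 7.74 in HEK293T, 5.84 and 6.34 in HFF1, 5.15 and 6.12 in K562, and no peak in GM12878. TIMP4 had 7.13 and 5.78 in HFF1 and 3.29 in K562 replicate 1. TIMP1, TIMP3 and TIMP4 overlap the synapsin genes SYN1, SYN3 and SYN2, and starts of CEP295NL and SYN2 lie within 2 kb of those of TIMP2 and TIMP4, so that a peak there cannot be assigned to 1 gene.

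Promoter sequence was described over 300 bases, from 250 before to 50 after the canonical start. TGACTCA, on either strand, occurred in 7 of 46 members (15.2%), against 3.58% of all genes. All 7 were MMPs: MMP1, MMP3, MMP7, MMP9, MMP12, MMP13 and MMP19. Of these, MMP1, MMP3, MMP7, MMP9 and MMP19 had a promoter peak in HFF1 and MMP12 and MMP13 in no library. In HFF1, 82.6% of all members and 76.2% of all genes had a promoter peak, shares that these 7 did not exceed. MMP7 and MMP9 also had a promoter peak in GM12878, MMP19 in K562 and MMP1 in every line. TATAAA occurred in 14 members (30.4% against 9.73%). The GATA letters AGATAA were in 4.35% of members against 7.15% of all genes, the RUNX letters TGTGGT in 10.9% against 10.7%, and the TEAD letters CATTCC in 10.9% against 11.4%. A match is letters in a window, not a bound site.

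CpG content was read at the canonical start and set against peaks within 1 kb of that start alone. The ratio of observed to expected CpG had a median of 0.667 over the 46 members and 0.776 over all genes. In the 5 members with no peak there it lay between 0.162 and 0.418, and the median of all 3738 such genes was 0.238. The 7 members with a peak there in all 4 lines had values of 0.444 to 1.04 and a median of 0.779, against 0.873 for all such genes. The 7 with one in HFF1 alone ranged from 0.0725 in MMP1 to 1.00 in ADAMTS16. The 6 with one in HEK293T and HFF1 alone, ADAMTS1, ADAMTS5, ADAMTS8, ADAMTS9, ADAMTS15 and MMP2, had values of 0.542 to 0.754. MMP10 (0.206), MMP3 (0.213), MMP9 (0.141) and MMP19 (0.143) were CpG-poor and still had a peak in 1 or more lines.

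**Figure D2:**
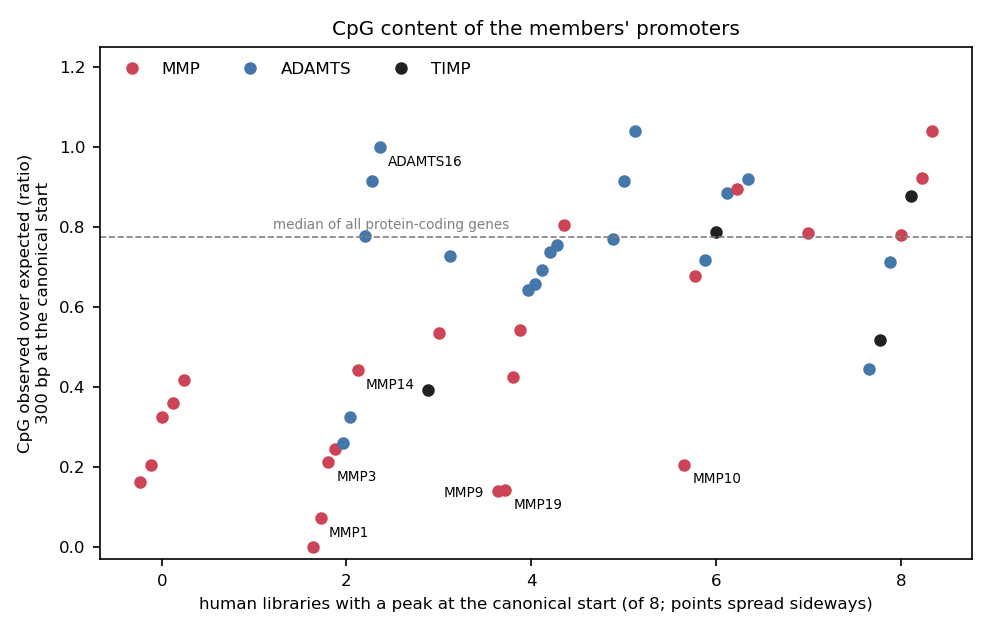
Ratio of observed to expected CpG in the 300 bases around the canonical start of each member (vertical axis) against the number of the 8 human libraries with a peak within 1 kb of that start (horizontal axis, points spread sideways); the dashed line is the median of all genes, 0.776. The 5 members at 0 libraries lie between 0.162 and 0.418, and MMP1, at 2 libraries, lies at 0.0725.

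Of the MMP genes, 9 lie side by side at 11q22 (chr11:102520508-102955732, 435 kb): MMP7, MMP20, MMP27, MMP8, MMP10, MMP1, MMP3, MMP12 and MMP13. Peaks in this stretch numbered 34 and 35 in GM12878, 13 and 12 in HEK293T, 42 and 44 in HFF1, and 14 and 14 in K562. Relative to the peaks per megabase of the same library over the genome, that was 2.33 and 2.35 times, 1.73 and 1.60 times, 2.30 and 2.55 times, and 1.24 and 1.37 times. The 4 libraries of GM12878 and HFF1 were the denser ones, above every HEK293T and K562 library.

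Merging overlapping peaks gave 73 regions in the cluster, 51 of them between genes. HFF1 had 37 in both replicates, GM12878 29, K562 14 and HEK293T 11, and 3 regions were called in all 4 lines. In HFF1 alone stood 21 of the 73, in GM12878 alone 10, and in HEK293T and K562 alone 1 each. Of all gene-body regions, 20.5% were called in HFF1 alone, 15.1% in GM12878 alone, 1.35% in HEK293T alone and 5.92% in K562 alone. The GM12878 and HEK293T counts lay near those shares. No test was made, and most cluster regions lie between genes. TGACTCA was present in 6 of the 21 HFF1 regions, beside 19.3% of all gene-body regions away from promoters that were called in HFF1 alone. The 21 also hold promoters and regions between genes, so the sets are not alike. The 6 included the canonical starts of MMP1 and MMP3 and an MMP12 intron region with folds of 6.43 and 7.13. Inside MMP13, HFF1 regions had folds of 7.80 and 7.09 and of 4.11 and 3.77. Between MMP1 and MMP3, 1 region was called in GM12878, HEK293T and K562 but not HFF1, with folds of 13.8 and 11.3, 6.18 and 7.61, and 8.73 and 10.7. That region lay 287.6 kb from the MMP7 end, and an HFF1-alone region lay at 282.0 kb. The HEK293T-alone and K562-alone regions lay further off, at 226.9 and 247.5 kb.

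**Figure D3:**
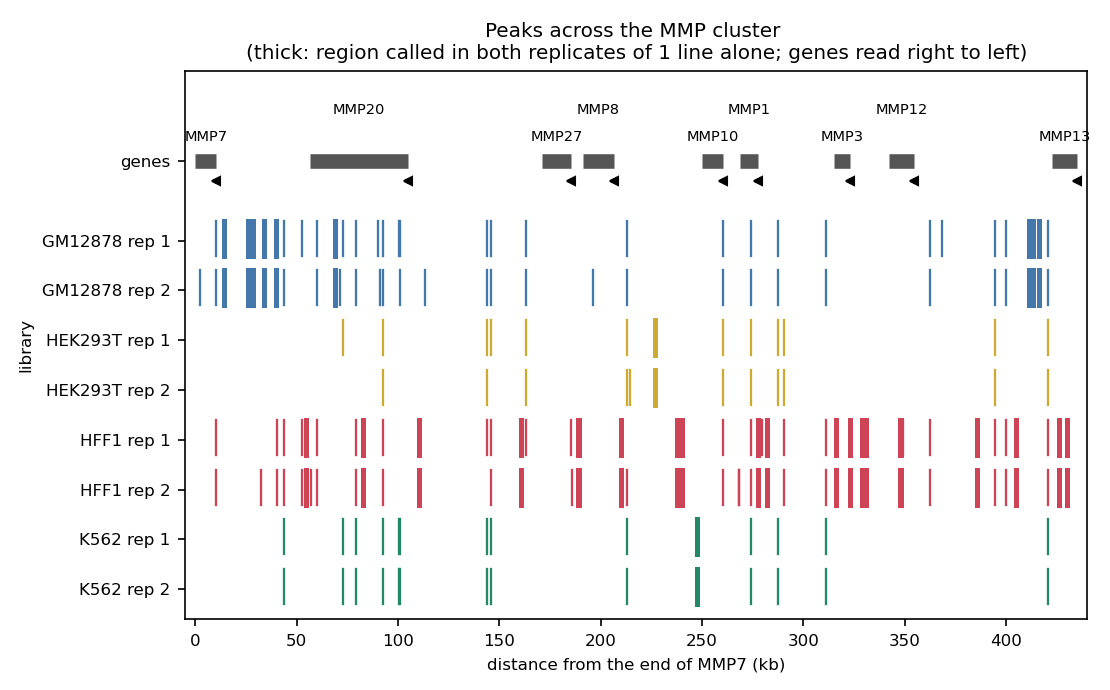
Peaks of the 8 human libraries (one track each) across the 435 kb MMP cluster at 11q22, by distance in kb from the MMP7 end, with the 9 genes drawn to scale above them; thick marks are regions called in both replicates of 1 line alone. HFF1 has 21 such regions of 73, GM12878 10, and HEK293T and K562 1 each. Of all gene-body regions, 20.5%, 15.1%, 1.35% and 5.92% were called in these lines alone, in that order.

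Gene-body peaks, those overlapping the annotated gene by 1 bp or more, were tested with limma over all 8 libraries, each line against the mean of the other lines, on log2 of the peaks plus 0.5 per 100000 peaks of the library. Genes with a mean of at least 1 peak were kept, which left 15574 genes and 34 of the 46 members. The 12 others included ADAMTS15, MMP3, MMP7, MMP10 and TIMP4. Because lists differed in length, a difference was counted in full only where the test without scaling gave the same call. Replicates with the same whole number of peaks show no spread, so the errors rest on the variance that limma shares between genes.

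HFF1 had more gene-body peaks at 16 of 34 members, under scaling and also under both treatments, against 13.7% and 13.7% of all genes. These were ADAMTS1, ADAMTS2, ADAMTS3, ADAMTS5, ADAMTS6, ADAMTS8, ADAMTS9, ADAMTS12, ADAMTS14, ADAMTS16, ADAMTS17, ADAMTS18, MMP2, MMP14, MMP16 and MMP28. HFF1 had the longest lists, so leaving out the scaling raised its differences. All 2134 genes higher in HFF1 under scaling were also called without it, so this agreement is no second test. HFF1 had fewer peaks at 8 members when scaled (44.1% of all genes) and at MMP15 and MMP26 under both (8.55%). The members' median log2 difference was 0.27, against -0.39 over all genes, and without scaling 1.02 against 0.36. Without scaling the split was 21 higher and 2 lower. Leaving out HFF1 replicate 2 left 5 lower calls under scaling.

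ADAMTS2 (chr5:179110853-179345461) had 28 and 26 gene-body peaks in HFF1, 4 and 5 in HEK293T, 5 and 4 in K562, and 0 in both GM12878 libraries. HFF1 was higher by 2.82 on the log2 scale (SE 0.12, limma adjusted p = 4.28e-05), and GM12878 lower, at -4.52 (SE 0.12, limma adjusted p = 1.22e-05). ADAMTS12 (chr5:33523535-33892019) had 25 and 25 in HFF1, 10 and 8 in GM12878, 9 and 6 in K562, and 3 and 1 in HEK293T. ADAMTS9 (chr3:64515654-64688000) had 22 and 19 in HFF1, 5 and 4 in HEK293T, and 2 in each of the other 4 libraries. In all 3 long genes the HFF1 libraries stood above every other, also per 100000 peaks.

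ADAMTS5 had 6 and 6 gene-body peaks in HFF1, 3 and 3 in HEK293T, and 0 in all 4 blood-line libraries. Its log2 difference was 2.02 in HFF1 (SE 0.08, limma adjusted p = 2.72e-05), 2.49 in HEK293T (SE 0.08, adjusted p = 3.75e-05; 1.57 without scaling), -2.56 in GM12878 (SE 0.08, adjusted p = 1.22e-05) and -1.95 in K562 (SE 0.08, adjusted p = 3.38e-05). ADAMTS1 had 3 and 3 in HEK293T, 2 and 3 in HFF1 and 0 in the blood lines, with limma values of 2.86 in HEK293T (SE 0.15, adjusted p = 9.32e-05) and -2.18 in GM12878 (SE 0.15, adjusted p = 0.000243). ADAMTS1 reached the mean of 1 peak needed for the test only with its HEK293T libraries counted. Its higher call in HEK293T was thus favoured by the filter. Differences against a line with 0 peaks depend on the added 0.5 and are no measure of size.

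The membrane-anchored MMP14 had 4 and 3 peaks in HFF1, 1 and 0 in GM12878 and 0 in the other 4 libraries. MMP2 had 15 and 13 in HFF1 and 3 to 5 in the other 6. MMP16 had 16 and 11 in HFF1, 6 and 6 in GM12878, 5 and 4 in HEK293T, and 1 and 1 in K562, where it was lower at -2.13 (SE 0.15, limma adjusted p = 0.000255). MMP28 had 7 and 6 in HFF1 and 2 or 3 in the others. In numbers of peaks HFF1 stood above the other lines at each of these genes. Per 100000 peaks it did so at MMP2, MMP14 and MMP28, whereas at MMP16 HFF1 had 12.6 and 9.14 and overlapped HEK293T, with 9.54 and 7.67. HFF1 also had the most peaks at 5 further ADAMTS genes. ADAMTS3 had 17 and 16 in HFF1, 11 and 10 in K562, 5 and 6 in GM12878, and 5 and 6 in HEK293T. ADAMTS14 had 14 and 15 in HFF1, 8 and 8 in K562, 6 and 6 in GM12878, and 1 and 1 in HEK293T. Both belong with ADAMTS2 among the procollagen N-proteinases. Per 100000 peaks, ADAMTS3 had 13.3 and 13.3 in HFF1 against 14.0 and 14.0 in K562, and ADAMTS14 had 11 and 12.5 against 10.2 and 11.2, so K562 lay above HFF1 at ADAMTS3 and overlapped it at ADAMTS14. ADAMTS6 had 13 and 14 in HFF1, 7 and 9 in GM12878, 3 and 3 in HEK293T, and 3 and 4 in K562. ADAMTS16 had 8 and 9 in HFF1, 4 and 3 in HEK293T, 3 and 2 in K562, and 1 and 1 in GM12878. Per 100000 peaks, ADAMTS16 had 6.28 and 7.48 in HFF1 and 7.63 and 5.75 in HEK293T, which overlap. ADAMTS8 had 4 and 3 in HFF1, 1 and 1 in HEK293T, and 0 in the blood lines. ADAMTS8 and MMP14 reached the mean of 1 peak needed for the test only through their HFF1 libraries. Their higher calls in HFF1 were thus favoured by the filter. The limma test sets HFF1 against the mean of the other lines, so a call does not place HFF1 above each of them.

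MMP26 (chr11:4704784-4992431), an endometrial matrilysin whose 288 kb span holds olfactory receptor genes, went the other way. It had 7 and 6 peaks in K562, 2 and 3 in GM12878, 2 and 3 in HEK293T, and 0 in HFF1. The log2 difference was 2.32 in K562 (SE 0.18, limma adjusted p = 0.000341) and -3.72 in HFF1 (SE 0.18, adjusted p = 7.4e-05). MMP15, a membrane-type MMP, had 5 and 5 in K562, 2 and 4 in HEK293T, 3 and 2 in GM12878 and 1 and 1 in HFF1, at -2.08 in HFF1 (SE 0.25, limma adjusted p = 0.000829). With the top 50000 peaks of each list, the HFF1 difference of MMP15 missed the threshold (-1.45, adjusted p = 0.0689).

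HEK293T was higher at 16 members when scaled (45.0% of all genes) and at 5 under both treatments (4.35%): ADAMTS1, ADAMTS5, ADAMTS8, ADAMTS17 and ADAMTS18. ADAMTS18 had 6 and 7 peaks in HEK293T, 6 and 5 in HFF1, 3 and 2 in GM12878 and 0 in K562. Its limma log2 difference was 2.67 in HEK293T (SE 0.16, adjusted p = 0.000131; 1.76 without scaling) and -3.09 in K562 (SE 0.16, adjusted p = 7.61e-05). ADAMTS17 (chr15:99971437-100342005) had 5 and 4 in HEK293T, 6 and 6 in HFF1, 5 and 6 in K562 and 0 in GM12878. HEK293T was lower at 4 members, ADAMTS12, ADAMTS13, ADAMTS14 and MMP20, when scaled (13.1%) and under both (13.1%). HEK293T had the shortest lists, and all 2040 genes lower there under scaling were also called without it, so this agreement is no second test. Without scaling the HEK293T split was 5 higher and 14 lower, against 16 and 4 with it, and the all-gene median moved from 0.42 to -0.49. The lower count was 2 without HEK293T replicate 2, K562 replicate 1 or K562 replicate 2.

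GM12878 was lower at 14 members when scaled (31.3% of all genes) and at 9 under both treatments (10.4%): ADAMTS1, ADAMTS2, ADAMTS3, ADAMTS5, ADAMTS8, ADAMTS9, ADAMTS16, ADAMTS17 and MMP1. At MMP1 the log2 difference without scaling was -0.25 in GM12878, HEK293T and K562 alike, and 0.74 in HFF1. In numbers of peaks GM12878 was thus not below HEK293T or K562 at MMP1. ADAMTS17 was lower in GM12878 at -3.92 (SE 0.14, limma adjusted p = 2.06e-05). GM12878 was higher at ADAMTS13, ADAMTS20, MMP20 and MMP25, 4 members when scaled (17.1%) and under both (17.0%). Of 2663 genes higher in GM12878 under scaling, 2644 were also called without it, so this agreement is no second test. ADAMTS13 had 6 and 5 peaks in GM12878, 4 and 4 in K562, 4 and 2 in HFF1, and 1 and 1 in HEK293T. MMP25 had 4 and 3 in GM12878, 2 and 2 in HFF1, 2 and 1 in K562, and 1 and 1 in HEK293T. GM12878 stood above the others at MMP25, also per 100000 peaks, whereas at ADAMTS13 it had 5.90 and 4.82 per 100000 and overlapped K562, with 5.09 and 5.61. ADAMTS20 had 3 and 3 in GM12878 and 1 or 2 in the other 6 libraries. MMP20, the enamel protease, had 8 and 8 in GM12878, 5 and 5 in K562, 4 and 5 in HFF1 and 2 and 1 in HEK293T. None of these 4 kept its call in limma without GM12878 replicate 1 or without GM12878 replicate 2. The higher count was then 1, ADAMTS4, without GM12878 replicate 1. It fell to 2 without K562 replicate 1 or K562 replicate 2, and to 0 by limma without GM12878 replicate 2, where 4 passed an unadjusted p of 0.05. Without scaling the GM12878 split was 7 higher and 9 lower.

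K562 was lower at 10 members when scaled (12.6% of all genes) and at 9 under both treatments (12.3%): ADAMTS1, ADAMTS5, ADAMTS6, ADAMTS8, ADAMTS9, ADAMTS18, MMP2, MMP16 and MMP28. It was higher at 8 when scaled (21.8%) and at ADAMTS14, ADAMTS17, MMP15 and MMP26 under both (12.9%), and at 5 under scaling without K562 replicate 2. Without scaling the K562 split was 4 higher and 10 lower. Of 1956 genes lower in K562 under scaling, 1913 were also called without it, so agreement on the lower calls is no second test.

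**Figure D4:**
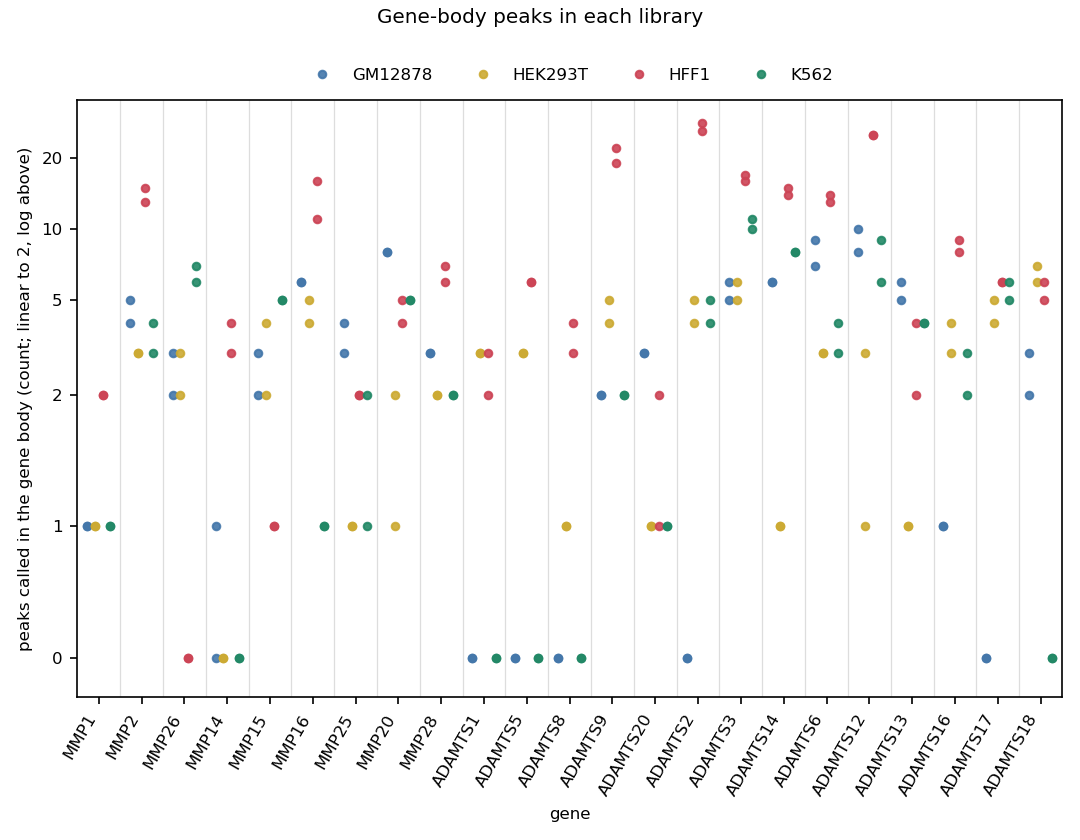
Gene-body peaks per library (vertical axis, linear to 2 and log above) of the 23 members called in the same direction with and without scaling in 1 or more lines; each point is 1 library, coloured by line, and coinciding points overlap. The HFF1 points lie highest at ADAMTS2 (28 and 26), ADAMTS12 (25 and 25) and ADAMTS9 (22 and 19), and at 0 for MMP26.

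Region by region, the members' gene bodies held 419 merged regions of 136743 in all genes. HFF1 alone held 132 of them (31.5%, against 20.5% of all gene-body regions), GM12878 alone 30 (7.16% against 15.1%), HEK293T alone 11 (2.63% against 1.35%) and K562 alone 22 (5.25% against 5.92%). In all 4 lines there were 28 (6.68% against 11%). By gene, the HFF1 regions made up 22 of the 32 in ADAMTS2, 19 of 45 in ADAMTS12 and 12 of 24 in ADAMTS9. ADAMTS17 had no region called in both GM12878 replicates and 3 HEK293T, 4 HFF1 and 4 K562 regions of their own among 16. MMP26 had 4 K562 regions of its own among 11.

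Away from promoters, TGACTCA lay within 101 bases at the summit of 21 of 116 HFF1-alone member regions (18.1%), as against 19.3% of all such HFF1 gene-body regions. For GM12878 it was 2 of 29 (6.90% against 8.43%), for K562 2 of 19 (10.5% against 9.75%) and for HEK293T 0 of 6 (3.01% of all). The TGACTCA shares thus lay near those of all genes in the same line, with only 6 regions in HEK293T. Several other letters departed more, on few member regions and with no test. AGATAA was in 1 of 19 K562 regions (5.26% against 22.8%) and TATAAA in 3 of 6 HEK293T regions (50.0% against 3.53%). Among the 116 HFF1 regions, CATTCC was in 6.03% against 12.4%, TGTGGT in 6.03% against 11.1% and AGATAA in 0.862% against 4.39%.

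Other genes of the pathway were taken from lists by function. Of 14 activators and other inhibitors, such as the plasmin system and the proprotein convertases, 11 had a promoter peak in GM12878, 10 in HEK293T, 13 in HFF1 and 13 in K562, with 8 in all 4 lines. Of 15 matrix substrates the numbers were 7, 9, 10 and 5, and VCAN and COL3A1 had one in HFF1 and in no other line. Of 9 membrane ADAMs they were 7, 5, 7 and 6, and of 7 ADAMTS-like genes, which lack the protease domain, 5, 5, 7 and 4. The shares of all genes in this order of lines were 71.9%, 67.8%, 76.2% and 70.4%.

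In gene bodies, limma calls under both treatments are counted, against 13.7% of all genes higher in HFF1 and 12.3% lower in K562. Of the 15 substrates 9 were higher in HFF1, among them FBN1, with 27 and 28 peaks there against 5 to 13 in the other libraries. In K562, 9 were lower. Of the membrane ADAMs, 4 of 8 tested were higher in HFF1: ADAM10, ADAM12, ADAM17 and ADAM33. ADAM12, a sheddase of mesenchymal cells, had 35 and 37 peaks in HFF1, 13 and 14 in HEK293T, 4 and 4 in K562 and 2 and 2 in GM12878. Of the ADAMTS-like genes 3 of 7 were higher in HFF1, and THSD4 had 68 and 61 peaks there against 6 to 16 elsewhere. Of the activators 3 of 13 were: PCSK5, PCSK6 and LRP1. PLG, the plasmin precursor, was the 1 gene of the 4 lists that was lower in HFF1 under both treatments. K562 was lower at 3 membrane ADAMs (ADAM12, ADAM17 and ADAM33) and at 3 ADAMTS-like genes (ADAMTSL1, ADAMTSL3 and THSD4). PLAU, the urokinase that starts plasmin formation, was higher in GM12878 and in K562 and lower in HEK293T, with 3 and 3, 2 and 2, and 0 and 0 peaks in that order, and 2 and 2 in HFF1.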

How the data were processed

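Bulk ATAC-seq of 4 human lines (8 libraries, 2 replicates each) was used. The mouse line was not used here. Per the submitters' processing notes, the tools were cutadapt 3.2, Bowtie2 2.4.2, Picard and MACS2 2.2.7.1, with hg38 for human. The authors deposited 1 narrowPeak list per library, so replicates were not pooled. Each deposited peak has a fold (a linear ratio to the background nearby), a score, and p- and q-values as −log10, all the authors' own. Peaks were joined to GENCODE 44 genes by an overlap of 1 bp, and no peak passed a chromosome end. Coordinates count from 1. The lists hold no read counts. A pileup and a background that give both the fold and the −log10 p-value were solved for each peak. The lowest common background of a library (0.465 to 2.43) served as its relative depth. Backgrounds were searched above a fixed lower bound, set just under the HEK293T values, and this bound was not varied.

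Gene-body peak numbers were tested two-sided with limma 3.58.1 in R 4.3.3, with a pseudocount of 0.5, a mean of at least 1 peak, and a Benjamini-Hochberg adjusted p of 0.05 over 15574 genes in each contrast. The test was first run on simulated data with known changes. Promoter shares have no test. The promoter values of ADAMTS4 in single libraries are not reported here.

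Members named in full were those whose promoter call differed between lines and, for each line, the 4 with the largest difference past the threshold. The members and lists were chosen with earlier results of these data known. Alternatives covered the promoter window, the peak threshold, list length, depth, scaling, pseudocount, filter, the replicate block and leaving out each library.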

Additional observations from a re-analysis of the deposited data

How the results depend on the processing

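Across the alternatives, 183 values of the counts kept within 1.5 times and 26 moved. Single genes were followed only for the 4 called members of largest difference in each line, picked from these same data. Of the values for these, 251 kept their call and 1 lost it (MMP15 in HFF1, -1.45, limma adjusted p = 0.0689, with 50000 peaks per library). Members with smaller differences were not part of this tally. Members with a promoter peak numbered 8 in GM12878 and 23 in HFF1 with 50000 peaks per library, where HEK293T kept 24, and 12 in GM12878 and 12 in K562 at the HEK293T depth. Those in all 4 lines numbered 7 with the canonical start only, 4 with 50000 peaks and 6 at the HEK293T depth. Members with none numbered 10 with 50000 peaks, and those in HFF1 alone 7 with the canonical start. For gene-body peaks without scaling by list length, the calls were 7 higher and 9 lower in GM12878, 5 and 14 in HEK293T, 2 lower in HFF1 and 4 higher in K562. The higher calls in GM12878 numbered 2 at a −log10 q of at least 5, and the lower calls in HFF1 numbered 4 with 50000 peaks. Leaving out 1 library gave ranges of 20 to 21 (GM12878), 25 to 29 (HEK293T), 38 to 39 (HFF1) and 19 to 23 (K562) for promoters, 11 to 13 for all 4 lines, 5 to 5 for none and 4 to 5 for HFF1 alone. For gene bodies the ranges were 0 to 3 higher and 11 to 16 lower in GM12878, 15 to 17 and 2 to 5 in HEK293T, 12 to 17 and 5 to 8 in HFF1, and 5 to 10 and 8 to 11 in K562. With 1 library of a line left, that library is assumed to vary like the other lines. The promoter call of that line then needs only the 1 library left, so every promoter count can only stay or rise.

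The labels give the lines the same replicate numbers, but no shared culture or day, and deviations of same-numbered libraries correlated between lines at -0.004 to 0.016 over 15574 genes. Under the replicate block there were 4 higher and 14 lower in GM12878, 16 and 4 in HEK293T, 16 and 7 in HFF1, and 8 and 9 in K562. Depth was lowest in HEK293T, and an uncalled promoter there was not detectable at this depth rather than shown to be closed. The cause of these moves was not tested.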
